A study of Mus musculus with 4 samples.

Results

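The extracellular matrix genes other than collagens were followed as a group of 36 genes of the 54532 in the count table, chosen by name: fibronectin, 10 genes of elastic fibres and microfibrils, 10 of basement membranes, 8 matricellular genes, 6 small leucine-rich proteoglycans and versican. They were measured in RNA labelled as coming from tumor-associated macrophages (TAMs) of NB9464 tumors, tumors of a mouse neuroblastoma cell line in which MYCN is amplified. The question was how loss of the kinase Syk from myeloid cells changes the transcripts of these tumors' macrophages. There were 2 libraries labelled SYK WT (M7 and M8, here SykMC-WT) and 2 labelled SYK KO (M9 and M10, here SykMC-KO). Both genotypes were C57BL/6 mice of 4 to 6 weeks, described as receiving NB9464 cells and no treatment, and tumors were taken on day 40. The name under which the counts were deposited mentions adoptive transfer of macrophages. The sources do not say whether these mice also received transferred macrophages. In SykMC-KO mice the floxed Syk gene is cut by Cre recombinase driven by the lysozyme M gene, which acts in myeloid cells, so other cells of the tumor keep the gene. TAMs were collected on magnetic beads carrying CD11b and F4/80 antibodies. The labels then name bone marrow-derived macrophages as the source of the RNA, and the sources do not say whether the libraries came from separate animals.

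Matrix glycoproteins are large secreted proteins that cells bind through integrins and other receptors. Fibronectin forms fibrils around connective tissue cells, fibrillins and fibulins carry elastin into elastic fibres, and laminins, nidogens and perlecan build the basement membrane under endothelium and around mural cells. Matricellular proteins such as tenascins, thrombospondins and periostin alter how cells attach, and small leucine-rich proteoglycans coat collagen fibrils. Fibroblasts and vascular mural cells are the textbook source of most of them, whereas fibronectin, thrombospondin 1 and versican are also made by macrophages and monocytes.

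Total counts ran from 20755886 to 23518045 per library, and the 36 genes took 1.74% and 1.95% of the counts in the SykMC-WT libraries and 0.679% and 0.556% in the SykMC-KO libraries. Mitochondrial genes took 2.20% and 2.34% in SykMC-WT, 6.00% in M9 and 15.9% in M10. Syk itself was 6.98-fold higher in the libraries labelled SykMC-KO, with 27.9 and 23.2 against 196 and 160 CPM (TMM-normalized counts relative to library size; log2 fold change 2.80, adjusted p = 0.000674), so each direction below refers to the labels and not to a checked loss of Syk. The summed macrophage markers were lower, and the summed fibroblast and mural cell markers higher, in both SykMC-WT libraries than in either SykMC-KO library. In bulk RNA, fewer cells of a type and less RNA per cell cannot be told apart.

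The promoters of 3 strongly lower matricellular genes, Tnc, Thbs2 and Postn, are shown first. RefSeq promoter entries (GRCm38.p6) were matched for 23 of the 36 genes. Printed below are the 250 bases before the annotated start of the first start of Tnc (chr4:64047016-64047265, minus strand), of Thbs2 (chr17:14694263-14694512, minus strand) and of the second start of Postn (chr3:54360857-54361106, plus strand). None of these windows overlapped an exon in GENCODE release M21. Capitals mark TATAAA or its reverse complement TTTATA, and, in Tnc, also GGGCGG, the GC box. These 3 windows were picked after the fold changes and the motif matches were known, as strongly lower genes whose window holds TATAAA. The second Tnc start holds the same motif 205 bases before it, and the first Postn start, Sparc and Fmod hold none in their windows. Fbn1, Tnxb and Lamb2 also fell strongly (log2 fold changes -3.03, -2.07 and -1.91), had promoter entries and hold no TATAAA. The Sparc window lies inside the gene as GENCODE places it and overlapped an exon by 210 bases. It therefore does not cover the bases before that gene.
Tnc: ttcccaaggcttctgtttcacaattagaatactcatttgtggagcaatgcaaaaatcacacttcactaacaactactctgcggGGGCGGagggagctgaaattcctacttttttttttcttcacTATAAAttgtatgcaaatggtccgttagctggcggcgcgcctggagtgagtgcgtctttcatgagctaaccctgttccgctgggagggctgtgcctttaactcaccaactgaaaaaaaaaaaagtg
Thbs2: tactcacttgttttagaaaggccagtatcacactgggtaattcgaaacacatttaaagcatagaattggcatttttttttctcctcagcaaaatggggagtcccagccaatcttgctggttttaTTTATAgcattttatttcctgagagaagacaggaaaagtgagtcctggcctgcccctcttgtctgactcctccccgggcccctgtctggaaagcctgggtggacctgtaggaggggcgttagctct
Postn: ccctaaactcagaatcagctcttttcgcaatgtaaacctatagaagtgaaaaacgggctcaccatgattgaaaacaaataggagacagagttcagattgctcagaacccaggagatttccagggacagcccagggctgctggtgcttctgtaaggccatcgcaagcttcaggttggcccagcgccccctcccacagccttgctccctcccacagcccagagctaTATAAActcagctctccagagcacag
The Postn motif begins 26 bases before the start, where a TATA box usually lies, whereas the Tnc and Thbs2 motifs in the printed windows both begin 126 bases before it. Only the exact letters TATAAA were searched, on either strand. Similar letters were not counted, such as tatataag close to the second Tnc start. On either strand, TATAAA occurred in 4 of the 23 genes (17.4%; Ogn, Postn, Thbs2 and Tnc) against 14.3% of all 27025 genes with an entry. The GC box GGGCGG occurred in 14 of 23 (60.9%) against 35.4%, the AP-1 motif TGANTCA in 2 (8.70%; Efemp1 and Tnxb) against 7.82%, and the cyclic AMP response element TGACGTCA in 0 against 1.77%. The CArG box, the binding letters of serum response factor, occurred in 1 gene, Lama2 (4.35%), against 1.62%. These matches describe letters in the windows and were not tested.

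Of the 36 matrix genes, 35 passed the expression filter. By edgeR's quasi-likelihood test, 23 of the 35 (65.7%) were lower in the SykMC-KO libraries with an adjusted p under 0.05, where 16.7% of all 16451 genes tested were lower. Only Thbs1 was higher (2.86% of the 35), where 22.7% of all genes were higher. The other 11 did not pass the threshold. The median log2 fold change was -1.17 over the 35 genes and 0.02 over all genes tested, and 32 of the 35 fold changes were below 0. Both SykMC-KO libraries were below both SykMC-WT libraries in 30 of the 35 (85.7%), against 37.2% of all genes, and 1 gene, Thbs1, had both above, against 38% of all genes. In 13 of the 23 lower genes, the lowest SykMC-WT library was at least 2-fold above the highest SykMC-KO library. This count was not made over all genes, so it is not set against them. The count of lower genes fell to 14 when M8 was left out. An exact permutation test (two-sided) on a gene alone could reach no p below 0.333 here. The p-values therefore measure the spread between libraries as fitted across genes, and that spread may be technical.

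**Figure D1:**
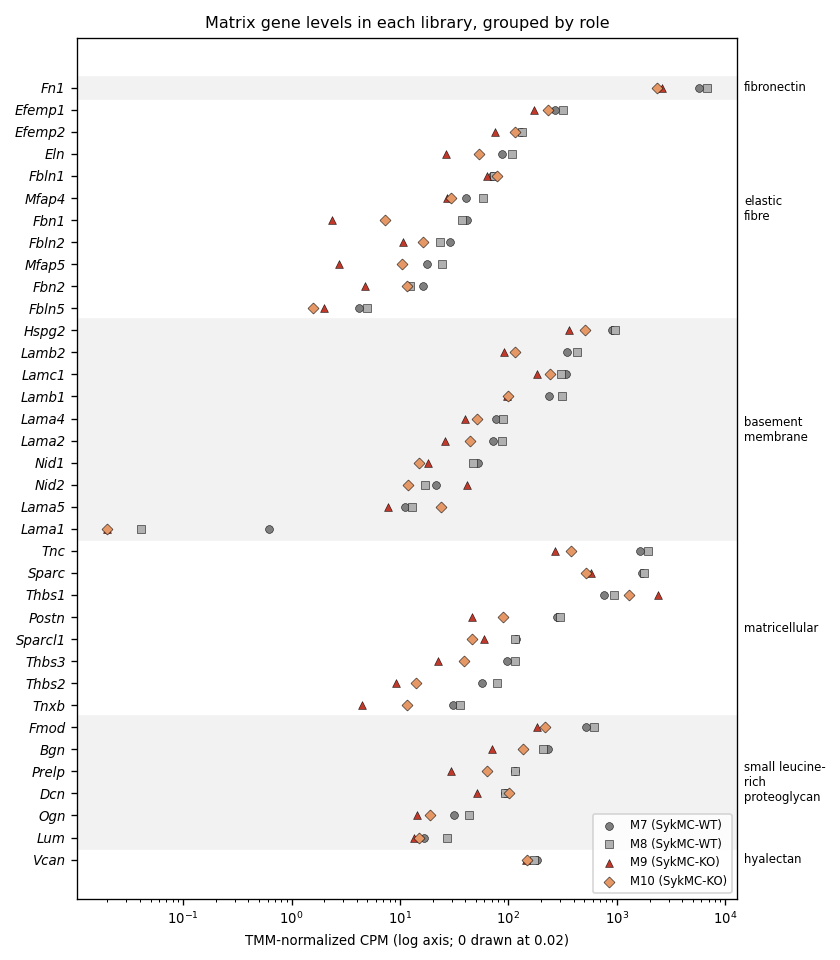
Level of each of the 36 matrix genes in each library (TMM-normalized CPM, log axis), ordered by role and then by SykMC-WT level. Grey points are the SykMC-WT libraries M7 and M8, and red and orange points the SykMC-KO libraries M9 and M10. Most red and orange points lie left of the grey ones, M9 is the lowest library for 28 tested genes, and Thbs1 is the gene with both SykMC-KO points on the right.

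**Figure D2:**
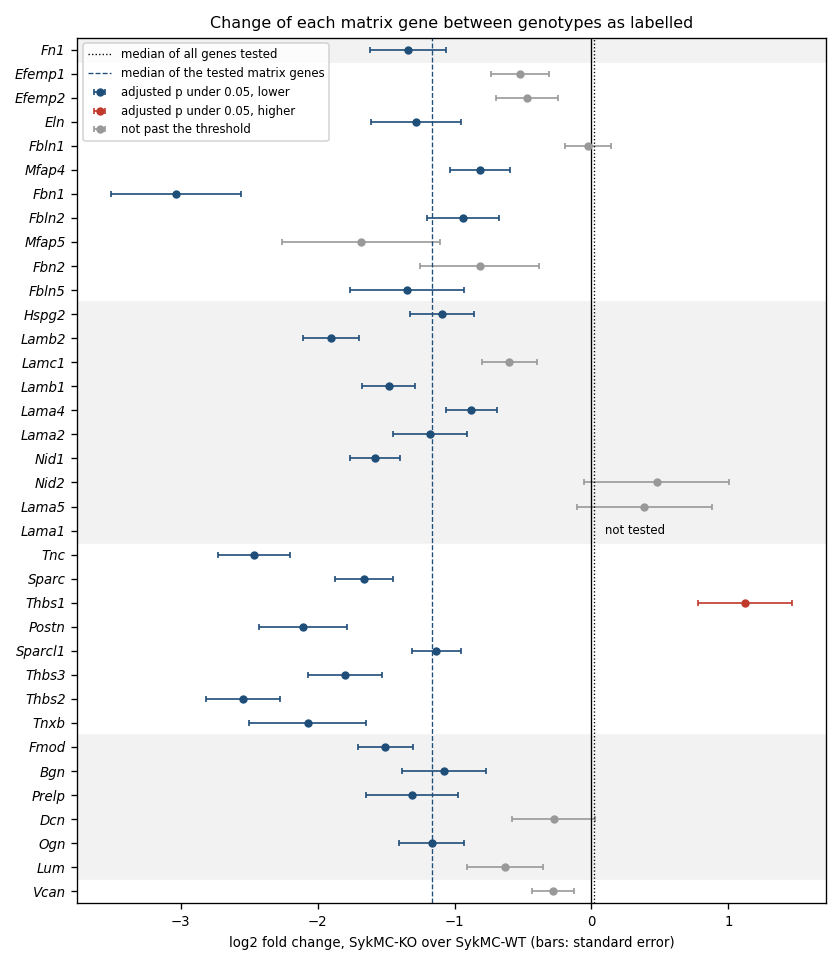
Log2 fold change of each matrix gene, SykMC-KO over SykMC-WT, with its standard error. Blue points passed the threshold as lower (23), red as higher (Thbs1), and grey points did not pass (11). The dashed line marks the median of the tested matrix genes, -1.17, and the dotted line that of all genes tested, 0.02.

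Fibronectin (Fn1, chromosome 1, 71585520 to 71653200 of GRCm38, minus strand) had the largest level per kilobase of exon of the group in the SykMC-WT libraries. Its level was 5663 and 6843 CPM in SykMC-WT and 2600.4 and 2338 CPM in SykMC-KO (libraries in the order M7, M8, M9, M10 here and below). The SykMC-KO libraries were alike, and the nearest libraries of the genotypes were 2.18-fold apart. The log2 fold change was -1.34 (SE, the standard error, 0.275, adjusted p = 0.0118), and it ran from -1.51 to -1.21 over the fits with a library left out. When libraries were scaled to 8 fibroblast markers, it was -0.73 and no longer passed the threshold (adjusted p = 0.199).

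Of the 8 matricellular genes, 7 fell and 1 rose, with a median log2 fold change of -1.94. Tenascin C (Tnc, chromosome 4, 63959785 to 64047015, minus strand), an anti-adhesive glycoprotein of wounds and tumor stroma, stood at 1629 and 1937 CPM in SykMC-WT and at 269 and 376 CPM in SykMC-KO. The nearest libraries of the genotypes were 4.33-fold apart. The log2 fold change was -2.47 (SE 0.264, adjusted p = 0.00161). Thbs2, an anti-angiogenic thrombospondin, had 57.3, 77.9, 9.13 and 14.1 CPM, and a log2 fold change of -2.55 (SE 0.273, adjusted p = 0.00161). Periostin (Postn), which helps cross-link collagen, had 280.1 and 301 CPM in SykMC-WT and 45.7 and 89.2 CPM in SykMC-KO. Its log2 fold change was -2.11 (adjusted p = 0.00448). For these genes, whose promoters are printed above, the genotypes were separated by at least 3.14-fold between their nearest libraries.

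SPARC (Sparc), a collagen-binding protein second to Fn1 in level per kilobase in SykMC-WT, had 1690 and 1769 CPM in SykMC-WT against 577 and 516 CPM in SykMC-KO. Its libraries agreed closely within each genotype, and the log2 fold change was -1.66 (SE 0.213, adjusted p = 0.00263). Its relative Sparcl1 had a log2 fold change of -1.13 (adjusted p = 0.00508). Tenascin X (Tnxb), which stiffens connective tissue, fell by 2.07 on the log2 scale (adjusted p = 0.0118), and Thbs3 fell by 1.80 on that scale (adjusted p = 0.00443). Thbs3 shares 318 exon bases with Mtx1 on the opposite strand, and the sources do not state whether counting used strand.

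Thrombospondin 1 (Thbs1, chromosome 2, 118111876 to 118127133, plus strand), an activator of latent TGF-beta that platelets, macrophages and stromal cells release, moved the other way. It stood at 761 and 936 CPM in SykMC-WT and at 2408 and 1281 CPM in SykMC-KO. The 2 SykMC-KO libraries were above both SykMC-WT libraries but differed from each other by more than M10 differed from M8. The log2 fold change was 1.12 (SE 0.342, adjusted p = 0.0415). The call was lost when M7 (0.98, adjusted p = 0.152), M8 (1.27, adjusted p = 0.0911) or M9 (0.51, adjusted p = 0.0883) was left out, and with DESeq2 size factors (1.09, adjusted p = 0.0542) or library size only (0.61, adjusted p = 0.230). Scaled to 10 macrophage markers the direction turned, to -1.82 (adjusted p = 0.00345), and scaled to 6 pan-leukocyte genes it was -2.60.

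Among the 10 elastic fibre genes, all 10 fold changes were below 0, 5 passed the threshold and the median was -0.88, which turned to 0.077 when the libraries were scaled to the fibroblast markers other than Twist2. Fibrillin 1 (Fbn1), the backbone of microfibrils, had the largest fall on the log2 scale among the 35 tested genes, from 41.2 and 37.1 CPM in SykMC-WT to 2.38 CPM in M9 and 7.25 in M10. Its log2 fold change was -3.03 (SE 0.474, adjusted p = 0.00492) and ran from -4.03 to -2.52 with libraries left out. A predicted gene on the opposite strand that shares 20.1% of the Fbn1 exon bases had 0 counts in every library. Elastin (Eln), the stretchable core of the fibre, had 87.4, 107, 26.4 and 53.3 CPM, with a log2 fold change of -1.28 (adjusted p = 0.0239), which lost its call without M8. The genotypes did not overlap in either gene, and M9 was the lower SykMC-KO library in both.

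Fbln5, which tethers elastin to cells, fell by 1.35 on the log2 scale (adjusted p = 0.0437) at a low level of 1.58 to 4.92 CPM. Fbln2 fell by 0.94 (adjusted p = 0.0322) and Mfap4 by 0.81 (adjusted p = 0.0268). The calls of Fbln2, Fbln5 and Mfap4 were lost without M8, and those of Fbln2 and Fbln5 also without M7. Fbln1, a fibulin of microfibrils and basement membranes, was level, with 70.1, 73.9, 63.0 and 78.5 CPM. Its log2 fold change was -0.03 (SE 0.169, adjusted p = 0.918), and the genotypes overlapped. Efemp1 (-0.52), Efemp2 (-0.47), Fbn2 (-0.82) and Mfap5 (-1.68) did not pass the threshold, although both SykMC-KO libraries lay below both SykMC-WT libraries in each. Mfap5 differed 3.85-fold between M9 (2.72 CPM) and M10 (10.5 CPM), the widest gap between SykMC-KO libraries among the tested genes.

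Of the basement membrane genes, 9 were tested, 6 fell and none rose past the threshold (2 had fold changes above 0), with a median log2 fold change of -1.09. Among the laminin chains, the beta chain Lamb2 had 347, 425, 91.8 and 114 CPM, and a log2 fold change of -1.91 (SE 0.204, adjusted p = 0.00161). The other beta chain, Lamb1, had 238, 311, 96.6 and 99.7 CPM, and a log2 fold change of -1.48 (SE 0.191, adjusted p = 0.00272). Their partner, the gamma chain Lamc1, had 336, 303, 182 and 240.0 CPM, and its log2 fold change of -0.60 did not pass the threshold (SE 0.199, adjusted p = 0.0541). All 3 chains were lower in both SykMC-KO libraries, by unequal amounts.

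The laminin alpha chains decide which laminin is assembled. Lama2, typical of muscle and mural cells, had a log2 fold change of -1.18 (adjusted p = 0.0174), and Lama4, typical of blood vessels, one of -0.88 (adjusted p = 0.0132). Both calls were lost without M8. Lama5 had 11.2, 13.0, 7.72 and 23.9 CPM, so that the SykMC-KO libraries lay on both sides of SykMC-WT (log2 fold change 0.39, adjusted p = 0.565). It was 0.90 and past the threshold without M9, and -0.63 and not past it without M10. Lama1, the chain of early embryos, had 17, 1, 0 and 0 counts and was not tested. The smallest signal taken as detectable, 3 counts, corresponds to 0.109 to 0.163 CPM, a floor that covers counting error only.

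Perlecan (Hspg2), the heparan sulfate proteoglycan of basement membranes, had 904, 958, 363 and 509.7 CPM, and a log2 fold change of -1.09 (SE 0.232, adjusted p = 0.0132), lost without M8. The nidogens link laminin to collagen IV, and they parted. Nid1 had 52.3, 47.0, 18.1 and 15.1 CPM (log2 fold change -1.58, adjusted p = 0.00190). Nid2 had 21.4, 17.0, 41.7 and 11.8 CPM, high in M9 and low in M10, with a log2 fold change of 0.48 (adjusted p = 0.506). Without M10 it was 1.13 (adjusted p = 4.8e-05) and without M9 it was -0.80 (adjusted p = 0.00855), so each SykMC-KO library alone gave an opposite call. Nid2 shares 437 exon bases (8.45%) with Rtraf on the opposite strand, which had 3151 counts in M9 and 2804 in M10.

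Of the 6 small leucine-rich proteoglycans, 4 fell and 0 rose, with a median log2 fold change of -1.12. Fibromodulin (Fmod), which steers collagen cross-linking, had the highest level per kilobase of them, with 515 and 620.4 CPM in SykMC-WT and 183 and 217 CPM in SykMC-KO. Its log2 fold change was -1.51 (SE 0.200, adjusted p = 0.00294). Prelp, which anchors basement membranes, had 116, 114, 29.6 and 63.3 CPM (log2 fold change -1.31, adjusted p = 0.0244). Biglycan (Bgn) fell by 1.08 on the log2 scale (adjusted p = 0.0337) and Ogn by 1.17 (adjusted p = 0.0113), both lost without M8, and Bgn also without M7.

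Decorin (Dcn), the classic collagen-binding proteoglycan of fibroblasts, had 93.0, 92.3, 51.8 and 101 CPM. The SykMC-KO libraries lay on both sides of SykMC-WT, and the log2 fold change was -0.28 (SE 0.304, adjusted p = 0.503). Its neighbour on chromosome 10, lumican (Lum), had a log2 fold change of -0.63 (adjusted p = 0.115). Versican (Vcan), a hyaluronan-binding proteoglycan of provisional matrix, had 184, 171, 145 and 147 CPM, with both SykMC-KO libraries slightly lower and a log2 fold change of -0.28 (SE 0.153, adjusted p = 0.186). Versican and Fbln1 did not pass the threshold with any of the libraries left out.

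Shares within a library do not depend on how libraries are scaled to each other. Levels per kilobase of exon were summed over the 36 genes, and each gene's share of that sum was taken as a description with no test. Thbs1 took 6.03% and 6.50% of the sum in M7 and M8, 33.9% in M9 and 19.6% in M10, and moved from rank 6 in SykMC-WT to rank 1 in SykMC-KO by mean level per kilobase. Fn1, ranked first in SykMC-WT, went from 23.3% and 24.7% to 19.0% and 18.6%. Sparc went from 21.5% and 19.7% to 13.0% and 12.7%, and Tnc from 10.1% and 10.5% to 2.95% and 4.49%. The SykMC-WT libraries thus had nearly the same make-up, and the SykMC-KO libraries shared the rise of Thbs1 and the fall of Tnc and Sparc but differed in size.

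**Figure D3:**
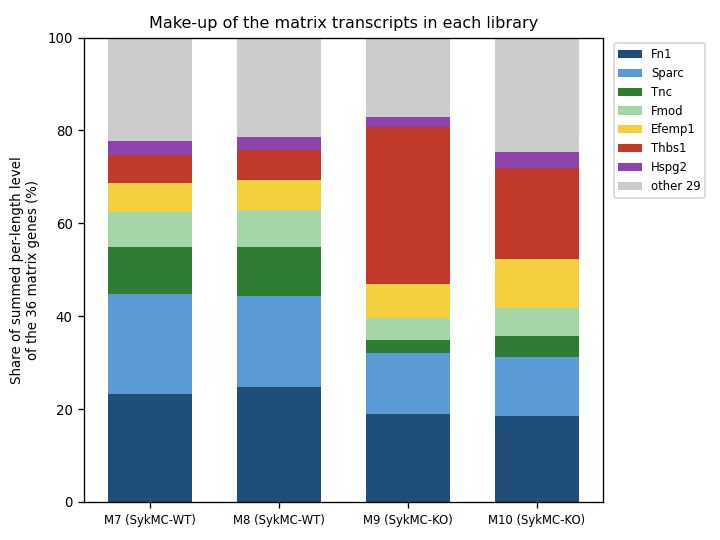
Share of the summed per-kilobase level of the 36 matrix genes taken by 7 named genes and by the other 29, in each library (stacked bars, %). Thbs1 (red) takes 6.03% and 6.50% in M7 and M8 but 33.9% and 19.6% in M9 and M10, and Tnc (dark green) shrinks from 10.1% and 10.5% to 2.95% and 4.49%.

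Within several families the make-up differed between genotypes with no overlap, on the same per-kilobase scale. Fbn1 made up 73.3% and 76.5% of the fibrillin level in SykMC-WT and 35.3% and 40.5% in SykMC-KO, so that Fbn2 was the larger fibrillin there. Thbs1 made up 81.5% of the thrombospondins in both SykMC-WT libraries, 98.5% in M9 and 95.5% in M10. Nid1 made up 64.5% and 67.3% of the nidogens in SykMC-WT, 24.4% in M9 and 48.9% in M10. Lama5 made up 8.28% and 8.17% of the laminin alpha chains in SykMC-WT, 12.2% in M9 and 23.1% in M10. The ratio of Lamb2 to Lamc1 was 1.41 and 1.903 in SykMC-WT and 0.687 and 0.647 in SykMC-KO. It was 1 of 11 ratios computed, a set of pairs chosen after the levels were seen, and none of the 11 overlapped between genotypes. Decorin rose from 6.11% and 5.33% of the small leucine-rich proteoglycans to 9.33% and 12.7%, while Tnc kept between 98.1% and 99.0% of the tenascin level in all 4 libraries.

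Genes that work with these proteins were counted from 5 lists. Of all genes tested, 16.7% were lower and 22.7% higher. Of 12 tested relatives of the same families, 8 (66.7%) fell and 0 rose (median log2 fold change -2.05). Tnn (-3.43), Omd (-3.32) and Aspn (-2.32) were among the 8. The first 2 rest on few reads. Omd had 37, 73, 1 and 7 counts (SE 0.971), with M9 under the 3 counts taken as detectable. Tnn had 163, 71, 12 and 4 counts (SE 0.694). Of 14 fibrillar, microfibrillar and basement membrane collagen genes, 13 (92.9%) fell and 0 rose (median -1.54). The largest falls were those of the collagen V chains Col5a1 (-2.21), Col5a3 (-1.93) and Col5a2 (-1.93). Col5a1 had 3070.0, 2785, 551 and 713 CPM, with no overlap. Of 20 genes of matrix assembly and cross-linking, 15 (75.0%) fell and 1 (5.0%) rose (median -1.24). The lysyl oxidase Loxl4 (-2.47), the procollagen protease Bmp1 (-2.23) and the latent TGF-beta binding protein Ltbp1 (-2.06) led the falls, and transglutaminase Tgm2 (1.66), named because it was the lone riser, rose. The medians of these 3 lists were below 0 under each of the scalings tried, whereas Tgm2 was not called higher under the macrophage and leukocyte scalings. The calls were fewer under the scaling to 8 fibroblast markers: 3 of 12, 5 of 14 and 7 of 20 were lower, where 5.94% of all genes were. Without Twist2 in that scaling, 3, 3 and 6 were lower, where 3.58% of all genes were. In the assembly list 2 genes were then higher with Twist2 and 5 without it, where 35.2% and 53.2% of all genes were.

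Of 18 genes that build proteoglycan sugar chains, 4 were lower and 4 higher (22.2% each way), near the shares of all genes tested (16.7% lower and 22.7% higher). Their median log2 fold change was -0.16, which became 0.45 under the fibroblast scaling and 0.87 under that scaling without Twist2. The hyaluronan synthase Has2 had 33.2, 37.0, 3.79 and 2.94 CPM, a log2 fold change of -3.38 (adjusted p = 0.000674). Chst3 had a log2 fold change of -1.93, and Xylt1, which starts the chain, one of 1.37. Of 24 matrix receptors, 10 were lower (41.7%) and 7 higher (29.2%, near the share of all genes), with a median of -0.58 that became 0.41 under the fibroblast scaling without Twist2. The laminin-binding integrin chain Itga7 fell by 2.98 on the log2 scale (31.2, 44.2, 4.08 and 5.50 CPM). Syndecan Sdc3 and the thrombospondin receptor Cd36 rose, each by 3.20, with Sdc3 at 77.4, 50.8, 744 and 438 CPM. Under the macrophage and leukocyte scalings no gene of either list was called higher.

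Marker lists of several cell types also differed between the genotypes, in both directions. The 10 macrophage markers were all higher in SykMC-KO (median log2 fold change 3.01), with summed levels of 1116 and 781 CPM in SykMC-WT against 9287 and 5539 CPM in SykMC-KO, although scaled to the leukocyte genes their median was -0.63. All 6 pan-leukocyte genes were higher (median 3.57, sums of 259 to 349 against 3025 to 4221 CPM). Their median was -0.05 when the libraries were scaled to these genes, a value near 0 that such a scaling fixes in advance. All 5 tested neutrophil genes were higher (median 3.12), but their median was -0.64 under the leukocyte scaling and 0.12 under the macrophage scaling. Of 8 fibroblast markers, 4 were lower and 1, Twist2, higher (median -0.87), with sums of 712 and 815 CPM against 269 and 344 CPM. Pdgfra, for example, had 162, 175, 52.5 and 66.1 CPM. The median of these markers was 0.12 under the fibroblast scaling without Twist2. That value is no check on their fall, because 7 of the same genes set that scaling. Of 8 mural cell markers, 6 were lower (median -1.54; 611 and 608 against 152 and 188 CPM), and Rgs5 fell from 173 and 163 CPM to 8.16 and 19.7 CPM. Of 8 endothelial markers, 3 were lower (median -0.56, which was 0.04 under the fibroblast scaling and 0.46 under it without Twist2; 209 and 203 against 153 and 144 CPM).

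Of 9 neuroblastoma markers, 4 were tested, none passed the threshold, and the catecholamine enzymes Dbh and Th had 0 counts in every library. Hand2, a further transcription factor of that list, stood at 178 to 301 CPM. Of the Schwann cell markers 3 were tested and of the keratinocyte and adipocyte markers 1 was, with 0 past the threshold. The macrophage markers Csf1r (142 and 91.1 CPM) and Adgre1 (53.6 and 27.8 CPM), the latter encoding the F4/80 antigen used for selection, were present in the SykMC-WT libraries. Thbs1 was highest in M9, the library with the highest macrophage, leukocyte and neutrophil sums. The part of these cell types in the matrix gene differences was not tested, and genotype and cell content cannot be told apart in 4 libraries.

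**Figure D4:**
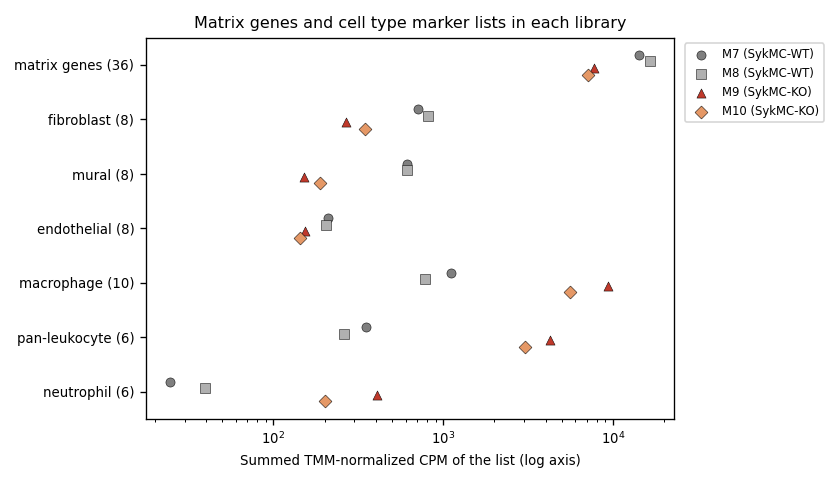
Summed level (TMM-normalized CPM, log axis) of the 36 matrix genes and of 6 marker lists in each library, with the number of genes of each list in brackets. The matrix, fibroblast, mural and endothelial sums are lower in M9 and M10, and the macrophage, pan-leukocyte and neutrophil sums are higher.

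With the libraries scaled to the geometric mean of the 8 fibroblast markers, 11 of the 35 matrix genes were lower (31.4%, against 5.94% of all genes tested), and Thbs1 was the single higher gene (log2 fold change 1.77, adjusted p = 0.0157), where 35.2% of all genes were higher. The median of the 35 genes was -0.59 and that of all genes was 0.60. The 11 lower genes were Fbn1 (-2.52), Thbs2 (-1.98), Tnc (-1.90), Postn (-1.57), Tnxb (-1.55), Lamb2 (-1.33), Thbs3 (-1.25), Sparc (-1.06), Nid1 (-0.98), Fmod (-0.92) and Lamb1 (-0.88). Matricellular genes supplied 6 of the 11. The count of 11 depended on Twist2, a marker at 1.97 to 13.7 CPM that moved against the others (log2 fold change 2.42, against -1.91 for Prrx1 and -0.07 for Fap). Without Twist2, an alternative chosen after seeing the data, 7 matrix genes were lower (3.58% of all genes were) and 4 were higher (53.2% of all genes were), and their median was -0.16, where that of all genes was 1.02. The 7 were Fbn1 (-2.09), Thbs2 (-1.55), Tnc (-1.47), Postn (-1.14), Tnxb (-1.12), Lamb2 (-0.90) and Thbs3 (-0.82), and the 4 were Thbs1 (2.19), Nid2 (1.56), Lama5 (1.33) and Fbln1 (0.97). Under the scaling to all 8 markers, decorin (0.26), Fbln1 (0.55), Vcan (0.30), Efemp1 (0.048) and Efemp2 (0.080) changed sign without passing the threshold. With TMM, 14 genes were lower with every library left out in turn, and they included all 11. Leaving out a SykMC-KO library also added calls: Lamc1, Lum and Mfap5 were lower without either M9 or M10, and Fbn2, Efemp1, Efemp2 and Dcn without M10, while Mfap5 was also lower without M7.

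**Figure D5:**
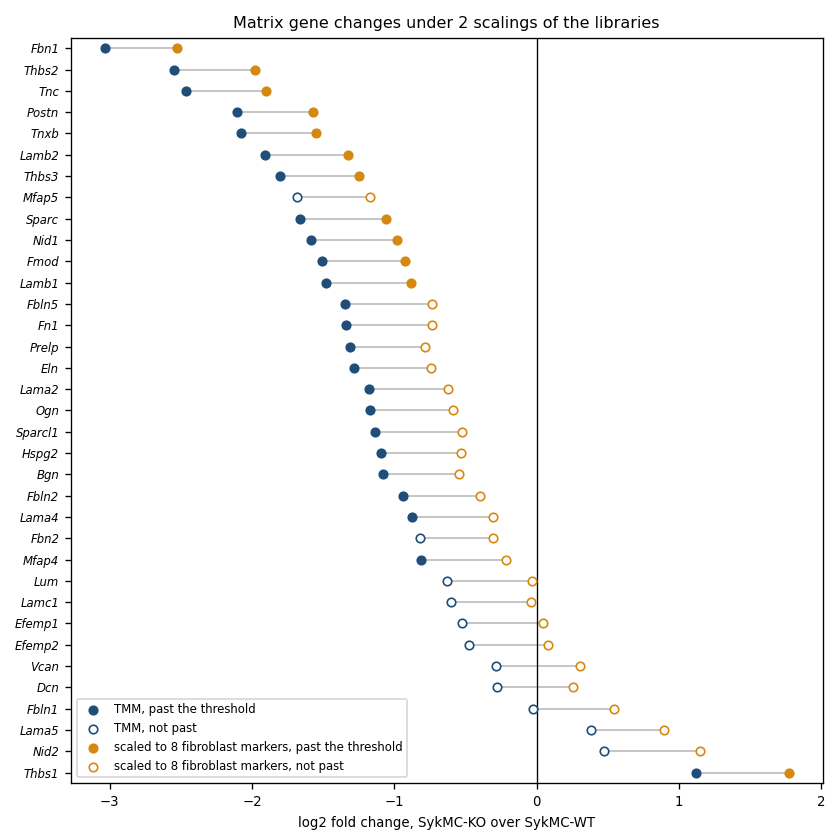
Log2 fold change of the 35 tested matrix genes with TMM normalization (blue) and with the libraries scaled to 8 fibroblast markers (orange), joined by a line for each gene. Filled points passed the threshold. Every gene moves to the right under the fibroblast scaling, 11 remain lower past the threshold, from Fbn1 (-2.52) to Lamb1 (-0.88), a count that becomes 7 without the marker Twist2, and Thbs1 (1.77) remains higher.

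The SykMC-KO libraries differed from each other more than the SykMC-WT libraries did. M10 was above M9 in 28 of the matrix genes and below it in 7 (median ratio of M10 to M9 1.34), and the median ratio of M8 to M7 was 1.16. Thbs1, Nid2, Sparc, Sparcl1, Fn1, Nid1 and Fbln5 were the 7 with M9 above M10. The widest gap between M7 and M8 among tested genes was 1.63-fold, in Lum, against 3.85-fold between M9 and M10. Of the 36 genes, 30 had at least 100 counts in every library.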

How the data were processed

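RNA-seq of 4 libraries was used. The authors mapped reads with STAR and quantified them with Salmon (versions 2.6.1d and 1.4.0 in the submitters' processing notes, with build mm10), and the deposited values are whole-number counts per Ensembl gene, not normalized. How whole numbers were made from Salmon's estimates, and strandedness, are not given in the sources used here, and reads of similar genes may be divided among them. The paper's methods describe triplicates on another instrument than the labels name.

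GENCODE release M21 gave symbols, positions and exon lengths. Counts passing filterByExpr (16451 genes) were compared in R 4.3.3 with edgeR 4.0.16 (TMM, glmQLFit and glmQLFTest, not robust), Benjamini-Hochberg adjustment and a threshold of 0.05. The TMM factors of SykMC-WT (1.22 and 1.19) exceeded those of SykMC-KO (0.876 and 0.787). P-values measure the spread between libraries. Chi-squares per degree of freedom of 50.6 and 168 within genotypes showed distinct libraries. Alternatives were DESeq2 1.42.0, other scalings, filters and call rules, and leaving out each library. A fibroblast scaling without Twist2 was added after seeing the data.

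The members and all lists were chosen with earlier results of these data known. The genes named are all 36 members, Syk, marker genes, and from each pathway list the 3 called genes with the largest change and no overlap, with Tgm2 added afterwards. A marker gene of the neuroblastoma list is not reported here.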

Additional observations from a re-analysis of the deposited data

How the results depend on the processing

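No paired analysis was possible because the labels number the libraries 7 and 8 against 9 and 10, with no number shared between genotypes. The 23 lower and 1 higher matrix genes became 24 and 0 with DESeq2 size factors, 31 and 0 with library size only, 35 and 0 with the macrophage or the leukocyte scaling, and 11 and 1 with the fibroblast scaling. Without Twist2 in the fibroblast list, an alternative chosen after seeing the data, they were 7 and 4, their median was -0.16 against 1.02 for all genes, and 8748 of all genes were higher and 589 lower. The median log2 fold change of the matrix genes was -1.71, -3.97, -4.78 and -0.59 with library size only and the macrophage, leukocyte and fibroblast scalings, where that of all genes was -0.52, -2.78, -3.60 and 0.60. All genes called higher and lower numbered 1677 and 5411, 112 and 14248, 55 and 15270, and 5787 and 978 under those scalings, and 2426 were higher when a log2 change of 1 or more was also required. Without a filter the median of all genes was -0.16, and with the DESeq2 Wald test it was -0.20. With each library left out, 14 to 30 matrix genes were lower and 0 to 2 higher, their median ran from -1.41 to -0.95, and 1478 to 5010 of all genes were higher and 807 to 4745 lower. Directions turned for Lama5 (library size -0.18, macrophage -2.28, leukocyte -3.13, -0.63 to 0.90 with libraries left out), Nid2 (-0.020, -2.50, -3.27 under the same scalings, -0.80 to 1.13 with libraries left out) and Thbs1 (macrophage -1.82, leukocyte -2.60). They also turned for Fbln1 (fibroblast 0.55, -0.18 to 0.037 with libraries left out), Dcn (fibroblast 0.26, -0.83 to 0.043 with libraries left out), Vcan (0.30), Efemp1 (0.048) and Efemp2 (0.080) under the fibroblast scaling. Without Twist2 they turned for Fbn2 (0.12), Fbln1 (0.97), Fbln2 (0.032), Efemp1 (0.47), Efemp2 (0.51), Mfap4 (0.21), Lama4 (0.12), Lamc1 (0.39), Dcn (0.69), Lum (0.39) and Vcan (0.72). The other filters, the Wald test and the removal of mitochondrial and rRNA-like genes changed no direction of a matrix gene. The cause of these changes was not tested. A fit that leaves 1 library in a genotype assumes that it varies like the others. Lama1 and Fbln5 had the lowest counts of the matrix genes.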
